A study of Mus musculus with 12 samples.

Results

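Malat1, Neat1, Miat, Pantr1, Rmst, Dlx6os1 and Oip5os1 are 7 long noncoding RNAs that are best known from the nucleus and from the nervous system. They were taken by gene symbol from the deposited transcript tables, where they hold 47 of 137862 transcripts and 7 of 54532 genes. Of the 7 genes, 6 were found under their own symbol, and Oip5os1 was found as 1700020I14Rik, which RefSeq lists as its synonym. All 7 passed the filter on low values, and the annotation places 6 of them among lincRNA genes and Dlx6os1 among antisense genes. Total RNA was sequenced after removal of ribosomal RNA, so neither the nuclear location nor the neuronal origin of any of these RNAs was measured.

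The libraries came from the hippocampus of mice aged 3 months and fall into 4 groups of 3 libraries: Atrx-cKO females, control females, Atrx-cKO males and control males. cKO stands for a conditional knockout, and the series title places the deletion of Atrx in neurons, so glia and other cells of a cKO hippocampus still carry the gene. The sources used here do not give the Cre driver, the strain, the genotype of the controls or the exons removed. ATRX remodels chromatin and works with a histone chaperone to place the variant histone H3.3 in heterochromatin. The design text counts 3 pairs of mice in each sex, by 1 reading of it, without saying what pairs them or which libraries form a pair, so the fits below are unpaired. It reads as 1 mouse per library without stating it for each library, so p-values measure the spread between libraries and stand for mice only if that reading holds.

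Malat1 lies in nuclear speckles, the compartments that store splicing factors, and is among the most abundant RNAs of a neuron. Neat1 is the scaffold of paraspeckles, which form around its long transcript and not around its short, polyadenylated one. Miat, also called Gomafu, gathers in nuclear foci of neurons and binds splicing factor SF1 through repeats that look like the branch point of an intron. Pantr1 is transcribed away from the gene of the neural transcription factor Pou3f3. Rmst is a neural RNA that was shown in human cells to bind SOX2. Dlx6os1, also called Evf2, runs antisense to Dlx6 and takes part in the development of GABAergic interneurons. Oip5os1, also called Cyrano, directs the destruction of the microRNA miR-7 through 1 site of unusually long pairing.

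Several of these RNAs are known by short sequence elements, which are shown here because the transcripts measured below carry them. Malat1 and Neat1 are cut at the 3′ end by RNase P and protected by a triple helix, in which U-rich tracts close around an A-rich end. Both tracts were read from the reference genome (GRCm38, minus strand, written as DNA 5′ to 3′), with the tracts in capitals. The Malat1 stretch is chr19:5795982-5796070 and lies in exon 1 of its single-exon transcript, and the Neat1 stretch is chr19:5824708-5824800, the last 93 bases of its long transcript.
Malat1: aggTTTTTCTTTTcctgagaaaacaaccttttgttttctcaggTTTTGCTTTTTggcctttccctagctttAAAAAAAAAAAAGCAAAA
Neat1: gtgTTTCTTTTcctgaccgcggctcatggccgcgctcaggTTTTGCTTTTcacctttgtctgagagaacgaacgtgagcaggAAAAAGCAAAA
Searched on the transcript strand, the tract of TTTT, GC and TTTT without a gap, followed within 80 bases by at least 5 As and then GCAAAA, was found in 3 genes among 141767 annotated transcripts, namely Malat1, Neat1 and Retreg3. Since the pattern covers the Malat1 and Neat1 ends shown above, both were bound to match it. In Malat1 the annotated transcript runs on for 292 bases past the A-rich tract, and in Neat1 it stops there.

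The Miat repeats are shown as the stretch chr5:112216756-112216808 (GRCm38, minus strand) of its longest transcript, with each TACTAAC in capitals.
Miat: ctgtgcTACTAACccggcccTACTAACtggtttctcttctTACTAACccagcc
TACTAAC, searched on the transcript strand, occurs 6 times in the 9163 bases of that transcript. Among 937 transcripts of 8000 to 10000 bases, 20.1% hold the motif at least once, and 0.213% hold it 6 or more times, which is 2 transcripts, both of Miat.

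The Oip5os1 site for miR-7 lies at chr2:119602137-119602161 (GRCm38, plus strand) and is shown with the paired bases in capitals, the seed match being the run at the right. The mature microRNAs of RefSeq (GRCm38.p6) are given with the seed, bases 2 to 8, in capitals.
Oip5os1: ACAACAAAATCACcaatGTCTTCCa
mmu-miR-7a-5p: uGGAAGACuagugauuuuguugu
mmu-miR-7b-5p: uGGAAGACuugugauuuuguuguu
Both microRNAs share the seed. The seed match GTCTTCC alone stands in 50.9% of transcripts of 8000 to 10000 bases, whereas the seed match preceded by ACAACAAAATCAC was found in 1 gene, Oip5os1.

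Pantr1 is shown by its alternative first exons, since most of its values below come from 1 transcript. ENSMUST00000176052 starts at chr1:42667586-42667672 and ENSMUST00000188153 starts beside Pou3f3 at chr1:42694747-42694825 (GRCm38, minus strand); both exons are given whole, in lower case because no part of them is singled out.
Pantr1 ENSMUST00000176052 exon 1: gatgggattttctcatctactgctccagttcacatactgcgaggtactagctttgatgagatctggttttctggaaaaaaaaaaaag
Pantr1 ENSMUST00000188153 exon 1: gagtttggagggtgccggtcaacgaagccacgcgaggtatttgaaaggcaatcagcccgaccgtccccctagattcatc

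The libraries differed in depth and in background. Mapped sequence ran from 1.16 to 8.64 Gb, and background, the median FPKM (fragments scaled by transcript length and library size) of 1459 olfactory and vomeronasal receptor genes, was 1.97 and 2.25 in cKO females 2 and 3, against 0.00664 to 0.602 in the other 10 libraries. All gene levels below are FPKM over the exon length of the gene, with the background of the library subtracted and the libraries scaled. Results on the 7 RNAs in females are given with and without cKO females 2 and 3, which leaves 1 cKO female whose spread is assumed to be that of the other groups. For the related genes described below, all 3 cKO females were used unless stated. Of the 89 genes tested from these lists without cKO females 2 and 3, 0 passed by limma in females, and 3 reached an unadjusted p under 0.05, where 4.29% of all genes did. Atrx, the targeted gene, averaged 6.24 ± 0.517 in cKO females against 11.8 ± 0.695 in control females, and 7.30 ± 1.24 in cKO males against 10.2 ± 0.135 in control males (SD, n = 3 each). Its adjusted p (limma, Benjamini-Hochberg over 15094 genes) was 0.0201 in females and 1 in males. Neuronal markers (Rbfox3, Snap25, Syt1, Slc17a7 and Camk2a) summed to 431 to 472 in cKO females, 422 to 478 in control females, 319 to 354 in cKO males and 357 to 374 in control males.

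By level, Malat1 stood far above the other 6 RNAs. It averaged 1568 ± 355 FPKM over the 12 libraries (SD), rank 53 of 15094 genes and rank 2 of 773 long noncoding genes. Oip5os1 followed at 64.0 ± 6.76 and Pantr1 at 11.4 ± 3.48, and neither range touched that of the RNA above it. The 4 lower RNAs were Miat at 7.70 ± 2.09, Dlx6os1 at 4.76 ± 0.530, Rmst at 2.68 ± 1.55 and Neat1 at 2.58 ± 0.662. Within libraries, Miat was above Dlx6os1 and Dlx6os1 above Rmst in all 12. Pantr1 was above Miat in 9 of 12 libraries and Rmst above Neat1 in 7 of 12, so the order of these pairs differed between libraries.

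**Figure D1:**
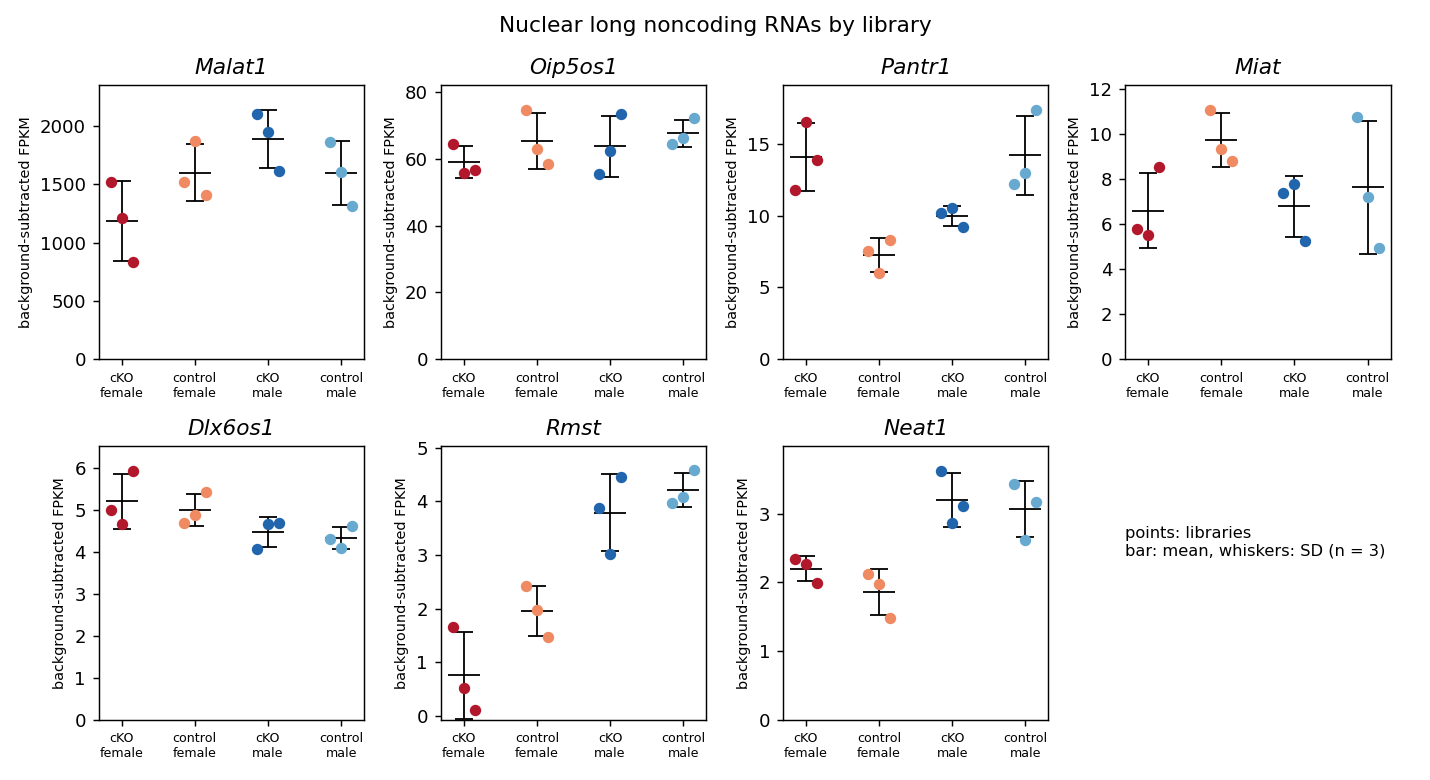
Background-subtracted, scaled FPKM of the 7 long noncoding RNAs in each library, with group means (bars) and SD (whiskers, n = 3). Pantr1 is higher in all cKO females than in any control female and lower in all cKO males than in any control male, while Dlx6os1 and Oip5os1 overlap in both sexes.

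None of the 7 RNAs passed the test in females, in males, in the mean of both sexes or in the difference between the sexes. By limma at an adjusted p under 0.05, 0.0729% of 15094 genes were called in females, 0.00663% in males, 0.0331% in the mean of both sexes and 0% in the difference. At an unadjusted p under 0.05 the members were 2 of 7 in females (Pantr1 and Rmst), where 29.4% of all genes reached it. They were 1 of 7 in males (Pantr1), against 2.32% of all genes, 1 of 7 in the mean (Rmst), against 20.4%, and 1 of 7 in the difference (Pantr1), against 6.24%. The median log2 change of the 7 RNAs was -0.14 in females and -0.09 in males, beside 0.02 and 0.03 over all genes tested. Over the 773 long noncoding genes tested the median was 0.43 in females and 0.15 in males. Most of that class is low, since Neat1, at a mean of 2.58, ranked 234 of 773. The background was 1.97 and 2.25 in cKO females 2 and 3. The median of the class was not computed without these libraries, and the part of the background in it was not tested. Within that class only Snhg8, host of a small nucleolar RNA, was called, in females and in the mean of both sexes, which is 0.129% of the class each time.

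**Figure D2:**
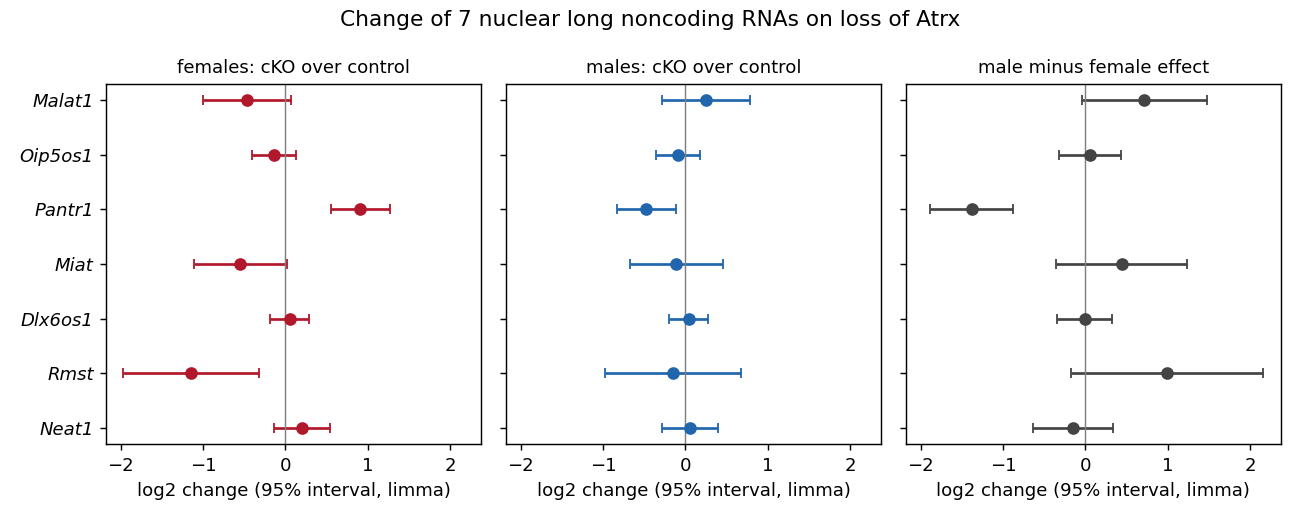
log2 change of each RNA on loss of Atrx in females (left), in males (middle) and as the difference of these effects, male minus female (right), with 95% intervals from limma. The Pantr1 intervals lie above 0 in females (0.55 to 1.26) and below 0 in males (-0.83 to -0.12), with no adjustment for the number of genes.

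Pantr1 had opposite differences in the sexes. It measured 11.8, 16.5 and 13.9 FPKM in cKO females 1 to 3, against 7.55, 5.99 and 8.29 in control females 1 to 3. In males it measured 10.2, 10.6 and 9.20 in cKO libraries, against 12.3, 13.01 and 17.4 in controls. Every cKO female was above every control female, and every cKO male was below every control male. Of the 7 RNAs it was the only one whose groups were separate in both sexes. It was the 1 of 7 with all cKO females above, where 10.2% of all genes did the same, and the 1 of 7 with all cKO males below, where 4.66% did. In males 0 of 7 had all cKO libraries above, against 7.43% of all genes. On the same side in both sexes there were 0 of 7, against 1.55% of all genes with cKO above and 0.947% with cKO below. The share of all genes separated on opposite sides in the sexes, as Pantr1 was, was not counted.

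The log2 change of Pantr1 was 0.91 in females (SE 0.161, a ratio of 1.87, adjusted p 0.113, limma) and -0.48 in males (SE 0.161, a ratio of 0.719, adjusted p 1). The difference, male minus female, was -1.38 (SE 0.228, 95% interval -1.89 to -0.88, unadjusted p 9.65e-05, adjusted p 0.441). Only 0.0133% of genes had a smaller p in that comparison, and no gene passed it. Without cKO female 1, adjusted p (limma) was 0.00148 in females and 0.00391 for the difference. That setting called 5771 of 14917 genes in females and 2908 in the difference. Without cKO females 2 and 3 the log2 changes were 0.68 in females (adjusted p 0.886) and -1.16 for the difference (adjusted p 0.955). With deposited FPKM summed per gene, scaled over all genes and not subtracted, the female value was -0.11 (adjusted p 0.833), beside a median of 0.33 over all genes on that scale.

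Read between the sexes, the same Pantr1 values were separate in each genotype, in opposite order. Among cKO libraries, males were at 9.20 to 10.6 and females at 11.8 to 16.5, whereas among controls males were at 12.3 to 17.4 and females at 5.99 to 8.29. No test was run between the sexes within a genotype, and the share of all genes so separated was not counted. Summed oligodendrocyte markers were also separate between the sexes. They were 478 to 610 in control males against 237 to 323 in control females, and 349 to 690 in cKO males against 215 to 288 in cKO females. Summed choroid plexus markers (Ttr, Kl, Folr1 and Kcne2) were 42.0 to 2311 in cKO males against 1243 to 3632 in control males, and 25.6 to 40.4 in cKO females against 10.95 to 5129 in control females. Summed neuronal markers were lower in every cKO male than in every control male, as given above. Summed astrocyte markers (Slc1a3, Aldoc, Gfap and Aqp4) were 262.0 to 304.8 in cKO males against 286.0 to 360.2 in control males, and 195.0 to 224.0 in cKO females against 197.7 to 209.2 in control females. All 5 neuronal and all 4 astrocyte markers had negative log2 changes in males, and 0 passed by limma. Of these 1, Aqp4, reached an unadjusted p under 0.05 (log2 change -0.38, adjusted p 1), where 2.32% of all genes did. In males 4 of 4 microglial, 4 of 4 choroid plexus, 4 of 5 interneuron and 3 of 4 oligodendrocyte markers were also negative. So were 2 of 2 striatal, 1 of 2 thalamic and 1 of 3 endothelial markers tested. The share of all genes with a negative change in males was not counted, and their median was 0.03. The part of these markers in the Pantr1 values was not tested.

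Most Pantr1 signal came from 1 of its 12 transcripts. ENSMUST00000176052, of 506 bases and 3 exons, held 63.8% to 79.4% of the summed deposited FPKM in each library. Its annotated start lies 27170 bases inside the gene, while the annotated start of the gene is 925 bases from that of Pou3f3. Before any subtraction or scaling, this transcript measured 80.3, 72.7 and 61.5 FPKM in cKO females against 48.0, 36.6 and 53.5 in control females. It measured 68.0, 67.9 and 57.8 in cKO males against 86.3, 85.0 and 129.9 in control males. The groups did not overlap on this scale either, and the share of all transcripts separated in this way was not counted.

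The next transcript of Pantr1, ENSMUST00000185599, starts beside Pou3f3 and was far less abundant. It averaged 10.5 ± 0.401 deposited FPKM in cKO females and 10.1 ± 1.08 in control females, and 9.23 ± 2.21 in cKO males and 13.6 ± 3.07 in control males (SD, n = 3 each). With background subtracted and libraries scaled as for genes, it averaged 11.7 ± 2.25 in cKO females and 8.89 ± 1.03 in control females, and 8.47 ± 1.95 in cKO males and 12.4 ± 2.68 in control males. On that scale ENSMUST00000176052 averaged 90.8 ± 16.7 in cKO females and 41.8 ± 9.95 in control females, and 59.8 ± 4.47 in cKO males and 92.2 ± 23.5 in control males. The libraries of ENSMUST00000185599 overlapped in both sexes on both scales. No test was run on single transcripts or on a difference between them, whose values are estimates of StringTie. Pou3f3 itself, which takes part in the development of cortical and hippocampal neurons, averaged 13.8 ± 1.64 in cKO females and 14.6 ± 0.761 in control females (log2 change -0.08, adjusted p 0.587). It averaged 15.7 ± 1.37 in cKO males and 16.5 ± 0.612 in control males (log2 change -0.07, adjusted p 1).

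**Figure D3:**
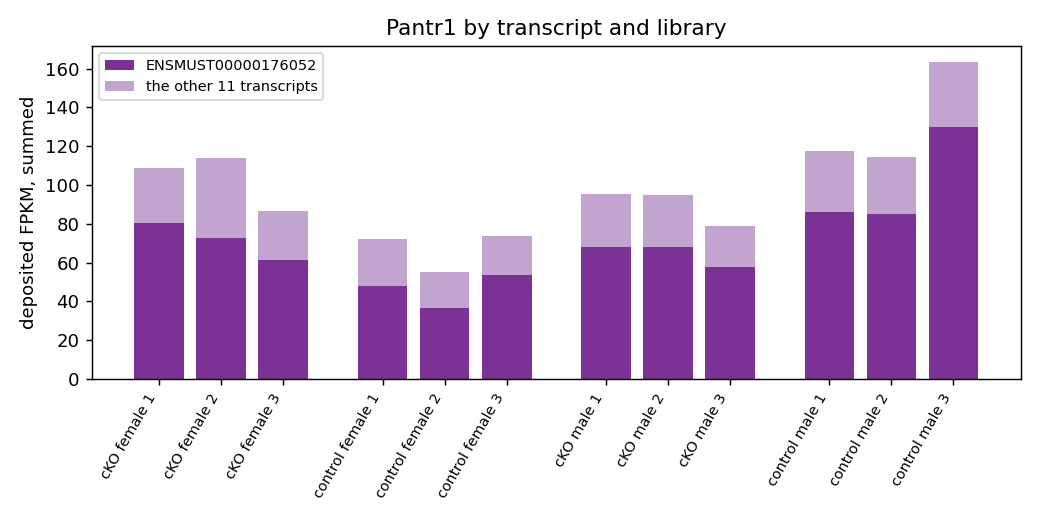
Deposited FPKM of Pantr1 in each library, stacked as ENSMUST00000176052 (dark) and the other transcripts of the gene (light). The dark part is 61.5 to 80.3 in cKO females, 36.6 to 53.5 in control females, 57.8 to 68.0 in cKO males and 85.0 to 129.9 in control males.

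Malat1 varied widely among the cKO females. It measured 1518, 1208 and 831 FPKM in cKO females 1 to 3, against 1519, 1875 and 1414 in control females. In males it measured 2103, 1953 and 1613 in cKO libraries, against 1866, 1605 and 1317 in controls. The groups overlapped in both sexes, and the lowest library of all was cKO female 3. The means were 1186 ± 344 in cKO females and 1602 ± 242 in control females, and 1890 ± 251 in cKO males and 1596 ± 275 in control males (SD, n = 3 each).

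The log2 change of Malat1 was -0.47 in females (SE 0.241, adjusted p 0.217, limma) and 0.25 in males (SE 0.241, adjusted p 1). Their difference was 0.72 (SE 0.340, unadjusted p 0.06, adjusted p 0.585). The female value was -0.67 without cKO female 1 (adjusted p 0.0498, limma), a setting that called 5771 of 14917 genes in females. It was -0.07 without cKO females 2 and 3. Malat1 took 1.16%, 0.561% and 0.372% of all mapped bases in cKO females 1 to 3, the libraries with a background of 0.305, 1.97 and 2.25. It took 1.003% to 1.64% in the other 9 libraries. The share taken by its full-length transcript ENSMUST00000172812 stayed between 76.2% and 80.6% of the summed FPKM of the gene.

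The neighbours and the processing enzymes of Malat1 and Neat1 gave no call. Of 8 neighbouring genes, 2 were abundant enough to test, and 0 passed in either sex by limma. An unadjusted p under 0.05 was reached by 1 in females (29.4% of all genes) and 0 in males (2.32%). Of 11 genes for 3′ end processing, 9 were tested and 0 passed in any comparison by limma. There, 3 reached an unadjusted p under 0.05 in females (29.4% of all genes) and 0 in males (2.32%). Among the 9, Rpp14, a subunit of RNase P, averaged 10.2 ± 0.710 in cKO females and 9.79 ± 0.329 in control females. Rpp38, another subunit, averaged 7.81 ± 3.00 in cKO females and 3.75 ± 0.346 in control females (log2 change 0.90, adjusted p 0.114). It was 4.46 in cKO female 1, against 3.43 to 4.12 in control females, and 8.73 and 10.2 in cKO females 2 and 3, the libraries of high background. Without these the log2 change of Rpp38 was 0.23 (adjusted p 1). Trnt1, the enzyme that adds CCA to RNA ends, averaged 7.68 ± 1.43 in cKO females and 8.97 ± 0.515 in control females.

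The proteins of nuclear speckles, where Malat1 resides, gave no call either. All 22 listed genes were tested and 0 passed in either sex by limma, with 5 at an unadjusted p under 0.05 in females, where 29.4% of all genes reached it, and 2 in males, where 2.32% did. Their log2 changes ran from -0.52 to 0.45 in females and from -0.14 to 0.23 in males. Their median log2 change was 0.00 in females and 0.07 in males, beside 0.02 and 0.03 over all genes. Srsf7, a splicing factor, averaged 30.1 ± 2.35 in cKO females and 23.5 ± 0.918 in control females (log2 change 0.35, unadjusted p 0.00066, adjusted p 0.114), and the log2 change was 0.23 without cKO females 2 and 3 (adjusted p 1). It averaged 31.5 ± 1.53 in cKO males and 28.4 ± 0.935 in control males (log2 change 0.15, adjusted p 1). Srsf5, a splicing factor of the same family, averaged 36.7 ± 5.19 in cKO females and 36.5 ± 3.82 in control females.

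The level of Neat1 as a whole gene did not pass the test in either sex. It measured 2.35, 2.27 and 1.99 FPKM in cKO females against 2.13, 1.98 and 1.48 in control females, and 3.63, 2.86 and 3.11 in cKO males against 3.43, 2.62 and 3.17 in control males. The groups overlapped in both sexes. The log2 change was 0.20 in females (SE 0.154, 95% interval -0.14 to 0.54, adjusted p 0.389, limma) and 0.05 in males (SE 0.154, interval -0.29 to 0.39, adjusted p 1). Without cKO females 2 and 3 the female value was 0.29 (adjusted p 1).

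The mean share of Neat1 assigned to its long transcript was higher in cKO than in control libraries. This share was computed from deposited FPKM, with no background subtracted. The long transcript ENSMUST00000173672, of 20771 bases, took 100%, 100% and 99.9% of the bases assigned to Neat1 in cKO females, against 96.9%, 96.7% and 94.7% in control females. In males it took 99.7%, 100% and 99.5% in cKO libraries, against 95.4%, 99.5% and 99.97% in controls. The groups were separate in females and overlapped in males, where control male 1 alone was well below the rest. How often the shares of other transcripts separate in this way was not counted. The cKO mean exceeded the control mean by 2.69 percentage points, averaged over the sexes (p 0.02, exact two-sided permutation test within sex, 400 relabellings, smallest possible p 0.005). The difference was 3.87 points in females and 1.498 points in males.

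The short forms behind that share were thinly covered. ENSMUST00000174287, which starts at the same end as the long transcript and spans 3004 bases in 2 exons, was listed at 0 in all 6 cKO libraries. In controls it was listed at 0.513, 0.489 and 0.765 FPKM in females, and at 1.20 in male 1 and 0 in males 2 and 3. Neat1 before subtraction was only 1.76 and 1.57 times the background in cKO females 2 and 3. Without these libraries the difference was 2.70 points (p 0.05, same exact permutation test), and without control male 1 the male difference was 0.043 points. The background was 0.305, 1.97 and 2.25 in cKO females against 0.180, 0.0863 and 0.602 in control females, and 0.0205, 0.286 and 0.0178 in cKO males against 0.0276, 0.0128 and 0.00664 in control males. Its part in the share was not tested.

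The protein partners of Neat1 did not pass the test. Of 22 paraspeckle proteins, 20 were tested and 0 passed by limma in either sex. An unadjusted p under 0.05 was reached by 2 in females (29.4% of all genes) and 0 in males (2.32%). The median log2 change of the 20 was 0.00 in females and 0.06 in males. Sfpq, one of the core proteins that coat Neat1, averaged 27.7 ± 3.85 in cKO females and 31.7 ± 1.498 in control females, and 31.2 ± 3.65 in cKO males and 29.5 ± 3.60 in control males. Hnrnpk, which directs the choice of the long transcript, averaged 32.5 ± 1.91 in cKO females and 29.7 ± 0.444 in control females (log2 change 0.13, adjusted p 0.238). Nudt21, part of the complex that selects the early polyadenylation site, averaged 26.8 ± 1.55 in cKO females and 26.6 ± 1.99 in control females.

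**Figure D4:**
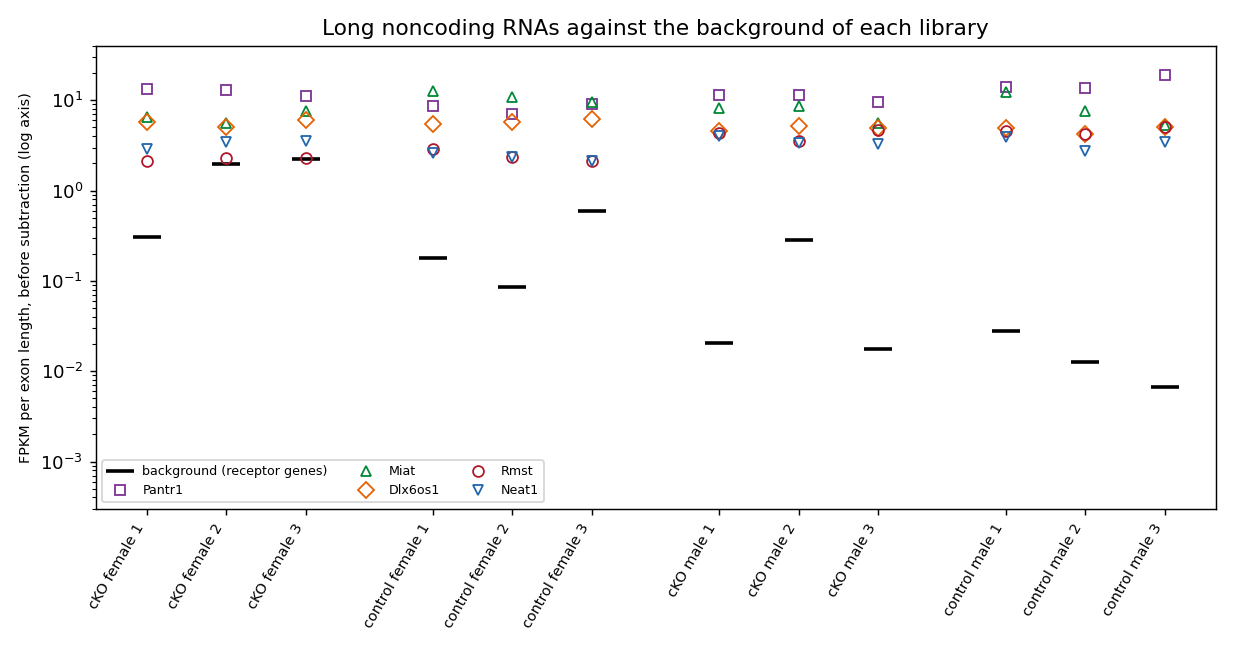
FPKM over exon length of Pantr1, Miat, Dlx6os1, Rmst and Neat1 before subtraction, on a log axis, beside the background of the same library (black bars). In cKO females 2 and 3 the background is 1.97 and 2.25 and Rmst is 2.31 and 2.32, whereas in control males Rmst is at least 164.7 times the background.

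Miat was lower in cKO females, without passing the test. It measured 5.78, 5.50 and 8.53 FPKM in cKO females 1 to 3, against 11.1, 9.35 and 8.81 in control females. Every cKO female was below every control female, 1 of 7 RNAs where 7.49% of all genes did the same. In males it measured 7.37, 7.79 and 5.26 in cKO libraries, against 10.8, 7.22 and 4.93 in controls, with overlap. The log2 change was -0.55 in females (SE 0.255, unadjusted p 0.0558, adjusted p 0.18, limma) and -0.11 in males (SE 0.255, adjusted p 1). Without cKO females 2 and 3 the female value was -0.70 (adjusted p 1).

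Summed markers of other cells were also lower in these females. The summed level of the 5 interneuron markers was 47.3 to 50.4 in cKO females against 50.5 to 56.4 in control females, ranges that nearly touched. Of the 5, 4 had negative log2 changes in females and 1, Gad2, a positive one (0.04). Slc32a1 was 2.73 in cKO female 1 but 0 and 0.017 in cKO females 2 and 3, the libraries of high background, against 2.63 to 4.13 in control females. The 4 microglial markers summed to 11.6 to 16.3 in cKO females against 18.3 to 21.9 in control females. Without cKO females 2 and 3 the median log2 change was -0.11 for interneuron markers and -0.30 for microglial markers, beside -0.36 and -0.39 with all 3 cKO females. No marker of either list was at 0 in all libraries of a group. The part of the background in these sums, and of these markers in the Miat values, was not tested. In bulk tissue, fewer cells of a type and less RNA per cell cannot be told apart.

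The long forms of Miat, ENSMUST00000182953 and ENSMUST00000181535, together held 70.2% to 85.3% of its summed FPKM, but the form that led differed from library to library. The other form was listed at 0 in cKO females 1, 2 and 3, cKO males 2 and 3 and control male 1. All 6 genes for proteins that bind the Miat repeats were tested, and 0 passed by limma. Of these, 1 reached an unadjusted p under 0.05 in females (29.4% of all genes) and 0 in males (2.32%). Sf1, which recognises the branch point, averaged 7.03 ± 1.96 in cKO females and 5.64 ± 1.07 in control females (log2 change 0.28, adjusted p 0.325). Qk, an RNA-binding protein with a preference for the same repeat, averaged 26.2 ± 3.06 in cKO females and 29.2 ± 2.38 in control females (log2 change -0.16, adjusted p 0.421).

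Rmst was the lowest in cKO females and the most dependent on background. It measured 1.66, 0.515 and 0.104 FPKM in cKO females 1 to 3, against 2.42, 1.97 and 1.48 in control females. In males it measured 3.88, 3.03 and 4.46 in cKO libraries, against 3.97, 4.08 and 4.58 in controls. The groups overlapped in both sexes, and only cKO females 2 and 3 were below all control females. The log2 change was -1.14 in females (SE 0.373, 95% interval -1.97 to -0.32, adjusted p 0.114, limma) and -0.15 in males (SE 0.373, adjusted p 1).

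Before subtraction Rmst was 1.17 and 1.03 times the background in cKO females 2 and 3, and 6.95 times in cKO female 1. The female log2 change was -1.63 without cKO female 1 (adjusted p 0.000982, limma), a setting that called 5771 of 14917 genes in females. It was -0.17 without cKO females 2 and 3 and 0.12 with no subtraction (adjusted p 0.576, limma). At these levels a difference in females was not detectable apart from the background. Male controls, at 3.97 to 4.58, were above female controls, at 1.48 to 2.42. No test was run between the sexes, and the share of all genes so separated was not counted. Rmst spans 11 other annotated genes, 10 of them on its own strand, and the sources used here do not say whether strand was used in counting.

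The partners and neighbours of Rmst and Pantr1 gave 0 calls among 5 tested genes by limma. An unadjusted p under 0.05 was reached by 1 in females (29.4% of all genes) and 0 in males (2.32%). Sox2, the transcription factor that binds RMST in human cells, averaged 10.1 ± 0.620 in cKO females and 11.6 ± 0.315 in control females (log2 change -0.20, adjusted p 0.314). It averaged 16.9 ± 1.96 in cKO males and 17.3 ± 3.50 in control males (log2 change -0.02, adjusted p 1). Hnrnpa2b1, another protein partner, averaged 29.2 ± 2.71 in cKO females and 29.7 ± 2.25 in control females. Pou3f2, the relative of Pou3f3, averaged 2.30 ± 0.543 in cKO females and 2.83 ± 0.454 in control females (log2 change -0.26, adjusted p 0.336).

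Dlx6os1 varied little, with a coefficient of variation of 11.1% over the 12 libraries. It measured 5.0, 4.68 and 5.94 FPKM in cKO females against 4.69, 4.88 and 5.43 in control females, and 4.07, 4.67 and 4.70 in cKO males against 4.31, 4.10 and 4.62 in control males. All groups overlapped. The log2 change was 0.05 in females (SE 0.107, 95% interval -0.19 to 0.29, adjusted p 0.786, limma) and 0.04 in males (SE 0.107, interval -0.20 to 0.28, adjusted p 1). Without cKO females 2 and 3 the female value was 0.00 (adjusted p 1). A separate entry of 146 bases with the same name, ENSMUSG00000098326, was not added to it.

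Of the 12 neighbours of Dlx6os1 and interneuron genes, 9 were tested and 0 passed by limma. An unadjusted p under 0.05 was reached by 2 in females (29.4% of all genes) and 0 in males (2.32%). Dlx6, over which Dlx6os1 runs, and Dlx5 were below the filter, with mean levels of 0.339 and 0.214. Gad2, which makes GABA, averaged 26.1 ± 2.79 in cKO females and 25.3 ± 0.483 in control females, and 17.2 ± 3.20 in cKO males and 17.6 ± 1.42 in control males. Npy, a neuropeptide of interneurons, averaged 184.6 ± 86.1 in cKO females and 80.7 ± 21.3 in control females (log2 change 1.09, adjusted p 0.117). It was 89.5 in cKO female 1, within the 56.2 to 94.9 of control females, and 257.4 and 207.0 in cKO females 2 and 3, the libraries of high background; without these the log2 change was 0.19 (adjusted p 1). Sst, the peptide somatostatin of dendrite-targeting interneurons, averaged 66.0 ± 15.2 in cKO females and 58.7 ± 7.73 in control females (log2 change 0.15, adjusted p 0.600).

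Oip5os1 had a coefficient of variation of 10.6% over the 12 libraries, and of 21.6% on the deposited scale, where that of Dlx6os1 was 12.2%. It measured 64.5, 55.9 and 56.8 FPKM in cKO females against 74.7, 63.1 and 58.5 in control females, and 55.4, 62.4 and 73.4 in cKO males against 64.5, 66.1 and 72.3 in control males. All groups overlapped. The log2 change was -0.14 in females (SE 0.120, 95% interval -0.41 to 0.12, adjusted p 0.444, limma) and -0.09 in males (SE 0.120, interval -0.36 to 0.17, adjusted p 1). Without cKO females 2 and 3 the female value was -0.01 (adjusted p 1). On the deposited scale, with no subtraction and no scaling, it was 76.9, 42.2 and 40.9 in cKO females against 89.9, 77.4 and 64.9 in control females. The distance between cKO female 1 and cKO females 2 and 3 was thus larger before processing than after it.

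The network around the miR-7 site was mostly below detection. Of 10 listed genes, 9 are in the tables and 2 were tested, with 0 calls by limma. Neither reached an unadjusted p under 0.05 in females (29.4% of all genes) or in males (2.32%). Mir7b, a precursor of the microRNA printed above, had a mean of 0.508, Mir7-1 had 0.243, and Mir7-2 had 0 after subtraction.

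Other nuclear long noncoding RNAs of the hippocampus did not pass either. Of 17 listed genes, 13 were tested and 0 were called by limma. None reached an unadjusted p under 0.05 in females (29.4% of all genes) or in males (2.32%). Snhg11 averaged 24.6 ± 4.88 in cKO females and 39.3 ± 9.78 in control females (log2 change -0.66, adjusted p 0.175). Meg3, the maternally expressed RNA of an imprinted cluster, averaged 21.9 ± 5.09 in cKO females and 29.0 ± 5.15 in control females (log2 change -0.41, adjusted p 0.421). Rian, of the same cluster, averaged 20.5 ± 2.68 in cKO females and 19.8 ± 2.29 in control females.

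Within groups, these RNAs deviated together in some libraries and apart in others. In control males, Miat deviated from its group mean by 0.53 in male 1 and -0.52 in male 3 on the log2 scale. Meg3 deviated by 0.67 and -0.66 in these libraries, Snhg11 by 0.68 and -0.50, and Malat1 by 0.24 and -0.26. In cKO male 3, Malat1, Miat, Meg3 and Snhg11 were all below their group means, by -0.22, -0.33, -0.54 and -0.38. Pantr1 went the other way in control males, with -0.19 in male 1 and 0.30 in male 3. In the same libraries Kcnq1ot1 deviated by 0.16 and -0.17, Rian by 0.06 and 0.16, and Tug1 by -0.05 and 0.04. Oip5os1 and Dlx6os1 stayed within 0.10 of their means in all 3 control males. In cKO females, Malat1 deviated by 0.40, 0.07 and -0.47 in females 1 to 3, whereas Miat deviated by -0.15, -0.22 and 0.37 and Meg3 by -0.04, 0.34 and -0.31. These deviations are a description of 12 libraries, and mapped sequence was 7.12 to 8.19 Gb in the control males.

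**Figure D5:**
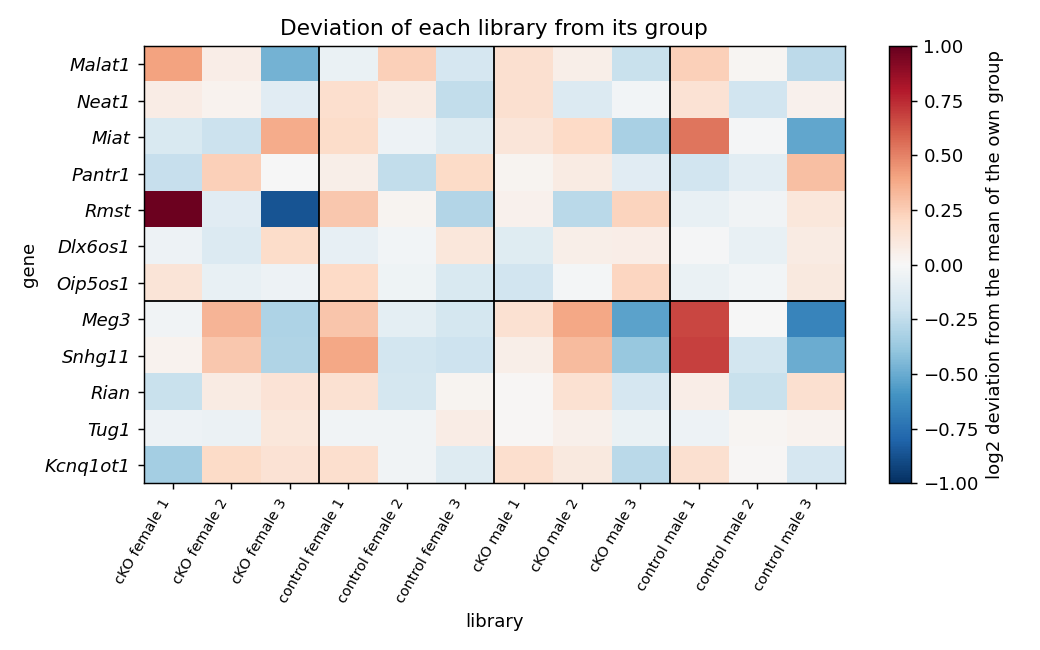
Deviation of each library from the mean of its own group, on the log2 scale, for the 7 RNAs (above the line) and 5 other long noncoding RNAs (below it). Control male 1 is high and control male 3 low for Miat, Meg3, Snhg11, Malat1 and Kcnq1ot1. The reverse holds for Pantr1, Rmst, Dlx6os1, Oip5os1 and Tug1, and both libraries are above the group mean for Neat1 and Rian.

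The genes closest to each RNA over the 12 libraries were found by the root mean square difference of centred log2 values among 6309 genes with a mean of at least 5. For Malat1 they were Arglu1, a splicing-associated protein, and Dync2li1, a dynein chain of cilia, at differences of 0.13 and 0.14, beside a median of 0.42 over all candidates. For Pantr1 they were Abhd4, a lipid hydrolase, at 0.21 and the pseudogene Rpl21-ps12 at 0.23, beside 0.48. For Miat they were Nov and Galnt9 at 0.21 and 0.22, beside 0.43, and for Neat1 they were Bex4 and Mid1ip1, both at 0.13, beside 0.37. For Rmst they were the pseudogenes Gm10029 and Gm6851 at 0.23 and 0.24, beside 0.94. Dlx6os1 was closest to Edem3 and Impa1 at 0.05 and 0.06, and Oip5os1 to Zfp354c and Lsm14a, both at 0.08, each pair with a median of 0.27 over candidates. Being the closest of all candidates, these genes lie below the median by selection. A gene with no change would lie at the SD of the RNA itself. That SD was 0.35 for Malat1, 0.42 for Pantr1, 0.36 for Miat and 0.30 for Neat1. It was 0.93 for Rmst, 0.135 for Dlx6os1 and 0.144 for Oip5os1. The part of the background in these distances was not tested.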

How the data were processed

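Per the labels' protocols, miRVANA extraction of total RNA was followed by rRNA reduction and library preparation with ScriptSeq Complete Gold. HISAT2 2.0.4 and StringTie were used with build GRCm38.p6, per the submitters' processing notes. The sources used here do not give trimming, strand or annotation release. The authors deposited, per transcript, FPKM and coverage, and no counts. The deposited coverage signal is a constant fraction of FPKM within each file, which gave the mapped bases. For each gene, bases assigned to all its transcripts were set over its merged exon length (GENCODE M21, matched for 54495 of 54532 genes). The median of 1459 receptor genes was subtracted and values below 0 were set to 0. Median-of-ratios scaling used protein-coding genes whose mean reached 5. A gene was kept if its mean reached 1 and 3 libraries reached 1 (15094 genes). limma 3.58.1 in R 4.3.3 (trend, robust) was fitted to log2(value + 0.5), on which scale folds of low genes are understated, with 4 group means and two-sided tests. Benjamini-Hochberg adjustment ran over all genes, with a threshold of 0.05. The fit was tested on simulated data, and other backgrounds, scalings, pseudocounts and filters, a replicate block and left-out libraries were tried. From each of 9 gene lists, any gene that passed was to be named, and otherwise genes among the 4 highest by mean, not always all 4. Dlx5, Dlx6 and the miR-7 genes, all below the filter, were named besides these. All 7 members and 2 closest genes for each were named. The members and the lists were chosen with earlier results of these data known. Values of overlapping genes are uncertain because the use of strand is unknown. Results on 2 listed genes are not reported here.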

Additional observations from a re-analysis of the deposited data

Results flagged for a closer look

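Pantr1 was singled out because its cKO effect had opposite directions in the sexes, with every cKO female above and every cKO male below the controls of the same sex. How many of all genes showed such opposite separation was not counted. The male minus female effect was -1.38 on the log2 scale (SE 0.228, unadjusted p 9.65e-05, adjusted p 0.441, limma), so it did not pass over all genes. The direction was the same in all 23 alternatives computed, which gave -1.49 to -0.68. The effect passed only without cKO female 1 (adjusted p 0.00391, limma), where 2908 of 14917 genes did.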

How the results depend on the processing

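The design text speaks of pairs of mice without saying which libraries form them, and same-numbered libraries did not all deviate together (correlations of -0.30 to 0.38 in females and -0.10 to 0.20 in males), so the numbers were not used as pairs. With the replicate number as a block, 0 genes were called in females, males and the mean of both sexes, and no call on a member changed. Counts of called genes were 11, 1 and 5 in females, males and the mean of both sexes. They were 5, 3 and 10 with no subtraction, 4, 0 and 0 with no scaling, and 0, 0 and 0 with summed FPKM, no subtraction. Females gave 30 with no filter and 7 with a mean of at least 5, males 0 with quantile normalization and 2 with a mean of at least 5, and the mean gave 10 without cKO females 2 and 3. Leaving out 1 library gave 1 to 5771 in females, 1 to 2 in males, 3 to 4434 in the mean and 0 to 2908 in the difference, each highest count outside males being without cKO female 1. The Neat1 long share difference was 1.96 to 3.11 points (p 0.005 to 0.04) with 1 library left out, and 2.70 points (p 0.05) without cKO females 2 and 3. Of 632 member values under alternatives, 585 kept direction and call, 6 newly passed the threshold (all without cKO female 1) and 41 changed sign, none of which was called. With no scaling the sign changed for Neat1 (females -0.19, mean -0.077, difference 0.23), Dlx6os1 (-0.41, -0.19, 0.43) and the Pantr1 mean (-0.037); this setting moved the median of all genes to -0.46 in females, so these values are read against it. With summed FPKM it changed for Neat1 (females -0.47, males -0.25, mean -0.36, difference 0.22), Dlx6os1 (-0.63, -0.19, -0.41, 0.44), Malat1 in males (-0.019) and Pantr1 (females -0.11, mean -0.45), with the median of all genes at 0.33 in females. Quantile normalization changed Dlx6os1 (females -0.18, mean -0.081, difference 0.20) and the Malat1 mean (0.12), with the median of all genes at -0.12 in females. No subtraction changed Rmst (females 0.12, difference -0.25) and moved the median of all genes to 0.45 in females. Without cKO females 2 and 3 the Malat1 mean was 0.092, and the differences were 0.037 for Dlx6os1 and -0.079 for Oip5os1. With 1 library left out, sign changed in the ranges of Dlx6os1 (females -0.039 to 0.12, difference -0.078 to 0.078), the Malat1 mean (-0.21 to 0.0099), Miat in males (-0.37 to 0.15), Neat1 in males (-0.040 to 0.12) and Oip5os1 (males -0.20 to 0.0063, difference -0.057 to 0.15). Where a cause is not given above, the cause was not tested. The depth behind single genes is unknown, since the values used here are not counts.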
